A study of Mus musculus with 14 samples.

Results

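This comparison followed what changed when germinal centre B cells lost the second functional copy of Crebbp. It set the 5 arrays of mice with 2 floxed alleles (KO) against the 5 arrays of mice with 1 floxed allele (HET), 10 of the 14 arrays of the series, as their titles name them. Each array held the splenic germinal centre B cells of 1 mouse. HET mice had the genotype Crebbpfl/+ Cg1-Cre (2 of 5 male) and KO mice Crebbpfl/fl Cg1-Cre (3 of 5 male). The 4 wild-type mice (WT, Crebbp+/+ Cg1-Cre, 1 male) carried the same Cre, so all 3 groups carried Cg1-Cre, a recombinase that acts on floxed DNA once a B cell is activated. All mice were 8 to 12 weeks old, had a C57BL/6x129Sv background, were immunised on days 0 and 5 with sheep erythrocytes and killed on day 12. B cells were first enriched from the spleen, and B220+CD95+PNA+ cells were then sorted. The share of sorted cells in which the floxed alleles had recombined was not analysed here.

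CREBBP is a transcriptional coactivator that acetylates histones and other proteins. It is recruited by CREB and by many other transcription factors, and its close relative EP300 shares much of this activity. In the germinal centre, B cells divide and mutate their antibody genes in the dark zone and compete for T cell help in the light zone, where signals through the B cell receptor and CD40 induce genes of activation and antigen presentation. Loss-of-function mutations of CREBBP are frequent in human lymphomas that arise from these cells, often on 1 allele.

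The values are log2 intensities, so a difference of 1 is a 2-fold difference. Each gene was represented by its brightest probe set that names a single gene, and 10225 genes above the median level of all probe sets, 6.43, were tested. Changes are KO minus HET, from limma with sex as a covariate, with a standard error (SE) and an adjusted p by the Benjamini-Hochberg method over those genes. The number of arrays limits the precision.

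Of 4 probe sets for Crebbp, all had lower means in KO than in HET mice. The difference was largest on 1436983_at, where the log2 intensities were 10.20, 10.01, 9.90, 9.81 and 9.82 in HET 1 to HET 5 and 9.35, 9.29, 9.56, 9.45 and 9.44 in KO 1 to KO 5. All KO arrays lay below all HET arrays there. The change was -0.52 (SE 0.09), which put KO at 69.5% of the HET intensity, and the mean was 10.29 ± 0.08 (SD, n = 4) in WT mice. Its unadjusted p was 4.66e-05 and its limma adjusted p over all 45037 non-control probe sets was 0.197. On 1434633_at the change was -0.36 (SE 0.10), again without overlap of the groups. The brightest probe set, 1435224_at, which stood for Crebbp among the genes, overlapped between the groups and changed by -0.25 (SE 0.09, unadjusted p = 0.0112, adjusted p = 0.466). The dimmest, 1459804_at, changed by -0.12 (SE 0.12). Whether these probe sets fall within the floxed segment was not analysed here, so their values are no measure of how many cells lost the gene. Ep300 changed by 0.06 (SE 0.12, adjusted p = 1), and its sign turned without KO 4 or in males alone.

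**Figure D1:**
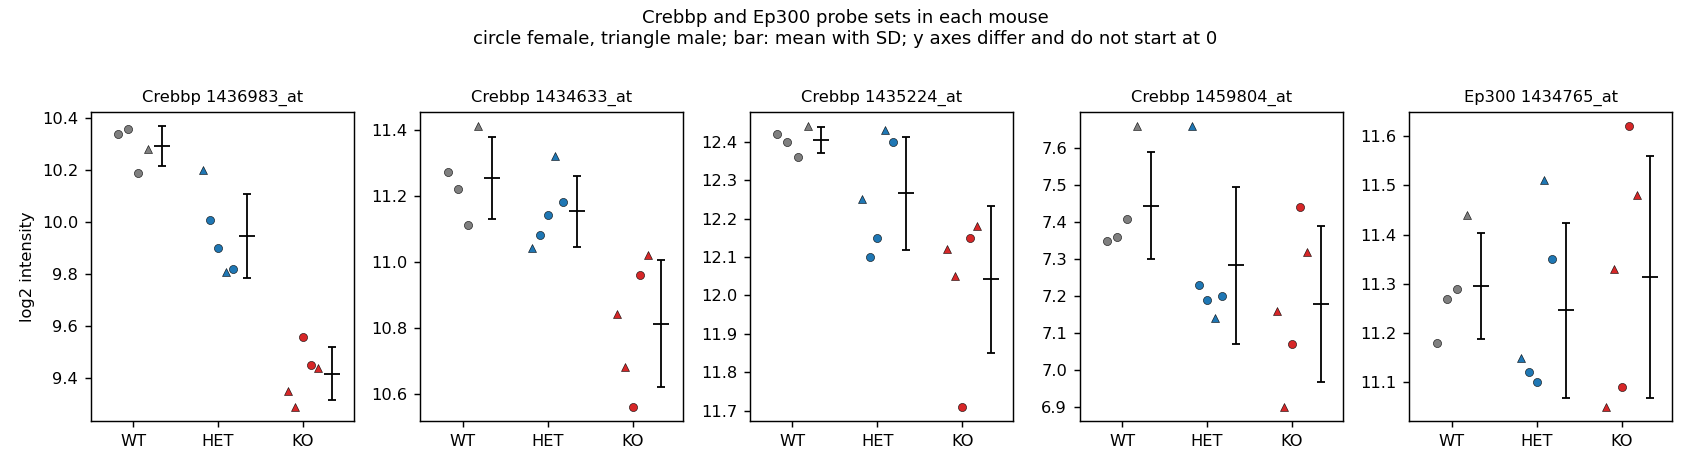
Log2 intensity of the 4 Crebbp probe sets and the Ep300 probe set in each mouse, by group; points are mice and bars the group mean with its SD. On 1436983_at the KO mice sit between 9.29 and 9.56 and the HET mice between 9.81 and 10.20, while the Ep300 values of the groups overlap.

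The sorted cells carried the markers of their label. All 11 germinal centre B cell markers with a single-gene probe set, Bcl6, Fas, Mybl1 and Gcsam among them, exceeded the median level, against 3 of 12 T cell markers and 4 of 12 macrophage markers. Cd3d, Cd3g, Cd4 and Csf1r were below it, while Cd3e, Cd8a, Cd2, Lyz2, Cd68, C1qb and Mpeg1 exceeded it. Of 6 naive or follicular B cell markers, 4 also exceeded it, Fcer2a, Klf2, S1pr1 and Gpr183. These 6 summed to a linear intensity of 1490 to 2455 in HET and 1560 to 2142 in KO mice. The summed linear intensity of the T cell markers ran from 4041 to 5363 in HET and from 2685 to 4948 in KO mice, and that of the macrophage markers from 1457 to 3077 and from 1416 to 2591. The plasma cell markers, 7 of 8 above the level, summed to 26320 to 27950 in HET and 25220 to 28460 in KO. These ranges overlapped, no gene of the 10 marker lists was called, and the part of other cells in the results was not tested. KO 3 correlated least with the rest (median 0.979, where the 13 others had 0.984 to 0.990) and lay at -27.5 on the first principal component of the 10 arrays, where the others lay between -9.45 and 15.7. Its log2 difference between 3′ and 5′ control probe sets of Gapdh was 0.736, where the 13 others had 0.589 to 0.716. For actin this difference was 0.82 in KO 3, 0.819 in HET 4 and 0.817 in HET 3. On that first component HET 3 was the next lowest after KO 3. HET 4, HET 5, KO 4 and KO 5 lay highest, at 9.32, 8, 13.2 and 15.7. The labels named no batch, and the cause of this order was not tested.

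KO cells differed from HET cells in 27 of the 10225 genes at an adjusted p under 0.05, 16 higher and 11 lower in KO. Genes for a mitochondrial carrier (Slc25a24), an inhibitor of receptor tyrosine kinase signalling (Spry2) and a histone demethylase (Kdm5b) were among those that rose, and genes for a nuclear receptor (Nr4a1), a cytokine subunit (Ebi3) and a cytokine receptor chain (Ifnlr1) among those that fell. The calls made up 0.264% of the genes tested, 0.156% higher and 0.108% lower. The changes had a median size of 0.62, from 0.31 to 1.23, and 3 genes were at least 2-fold higher while none was 2-fold lower. In bulk RNA, fewer cells of a type and less RNA per cell cannot be told apart. Every KO array exceeded every HET array for all 16 higher genes, and lay below every HET array for 10 of the 11 lower genes. Over all genes tested such separation was found for 0.606% in the first direction and 0.822% in the second, 1.43% in all. The choice of the 27 by their difference over these same arrays largely fixes their separation, which is therefore no added support. An unadjusted p under 0.05 was reached by 653 genes (6.39%), 261 of them higher (2.55%) and 392 lower (3.83%), beside 511 that 5% of the genes tested amounts to.

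All 27 adjusted p-values lay between 0.0222 and 0.0469, and the count was lower in each of the 14 fits that left out 1 array. It was 25 without KO 1, of which 15 were among the 27, and between 0 and 16 in the other 13 fits. Without HET 1 or HET 5 it was 0 (534 and 617 genes at an unadjusted p under 0.05), without HET 3 it was 1, without HET 2 it was 3 and without HET 4 it was 4. Without any single WT array, which enter only the estimate of spread and the sex term, it was 13 to 16. Without KO 2, KO 3, KO 4 and KO 5 it was 9, 13, 8 and 16. A fit on the HET and KO arrays alone called 5 genes. Calls of single genes are counted over these 14 fits.

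**Figure D2:**
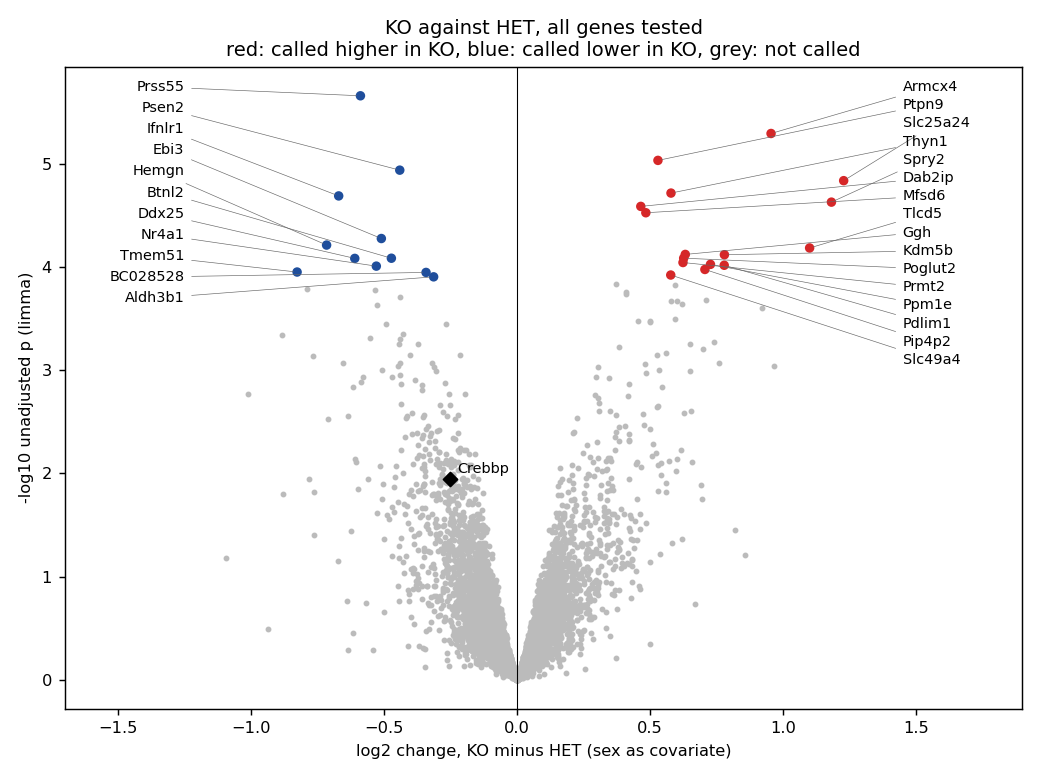
Log2 change (KO minus HET, x axis) against the −log10 unadjusted limma p (y axis) for each of the 10225 genes; red and blue points are the 16 called higher and 11 called lower genes, and the diamond is Crebbp. The called genes lie at an unadjusted p of at most 0.000124, and Slc25a24 and Spry2 have the largest changes among them.

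The largest rise belonged to Slc25a24, which encodes a calcium-regulated carrier that moves adenine nucleotides across the inner mitochondrial membrane. Its log2 intensities were 6.81, 6.74, 6.77, 6.43 and 6.88 in HET 1 to HET 5 and 7.85, 7.83, 8.50, 7.68 and 7.91 in KO 1 to KO 5. KO 3 was the highest, and the groups were far apart. The change was 1.23 (SE 0.18, adjusted p = 0.0291), 2.34-fold, and the gene was called in 9 of the 14 fits. The HET change against WT was 0.02 (SE 0.19), with WT mice at 6.24, 6.52, 6.90 and 7.18. A second probe set of the gene was far below the tested level and changed by 0.02 (SE 0.11).

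Spry2, an inhibitor of the pathway from receptor tyrosine kinases through RAS to ERK, had values of 6.48, 6.16, 6.04, 5.69 and 6.17 in HET and 7.28, 7.26, 6.66, 7.70 and 7.65 in KO mice. KO 3 was the lowest KO mouse and still above the highest HET mouse. It rose by 1.18 (SE 0.19, adjusted p = 0.0291) and was called in 7 of the 14 fits, and its other probe set, below the tested level, changed by 0.30 (SE 0.09). Dab2ip, a GTPase-activating protein for RAS, changed by 0.47 (SE 0.07, adjusted p = 0.0291), with KO mice from 9.94 to 10.21 and HET mice from 9.42 to 9.82, and was called in 7 of the 14 fits. Ptpn9, a tyrosine phosphatase, had values of 8.18, 8.14, 7.87, 8.23 and 7.85 in HET and 8.67, 8.56, 8.59, 8.63 and 8.66 in KO mice. The 5 KO mice were nearly alike, and the change was 0.53 (SE 0.08, adjusted p = 0.0291). It was called in 9 of the 14 fits. Ppm1e, a serine/threonine phosphatase, rose by 0.73 (SE 0.13, adjusted p = 0.0453), and Pip4p2, a phosphatase of the membrane lipid phosphatidylinositol bisphosphate, by 0.71 (SE 0.13, adjusted p = 0.0459); both were called in few of the 14 fits, 1 and 2.

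A demethylase and a methyltransferase were among the higher genes. Kdm5b, which removes methyl groups from lysine 4 of histone H3, had values of 7.32, 7.17, 7.05, 7.50 and 6.79 in HET and 8.09, 7.82, 7.91, 7.85 and 8.40 in KO mice. It rose by 0.78 (SE 0.14, adjusted p = 0.0453), 1.72-fold, and its 3 other probe sets, all below the tested level, changed by 0.65 (SE 0.14), 0.27 (SE 0.12) and 0.20 (SE 0.08). Kdm5b was the only called gene of 21 tested histone lysine demethylases, and 9 of these had positive changes (11 without KO 3). Prmt2, a protein arginine methyltransferase, was at 8.41 ± 0.09 (SD, n = 5) in HET and 9.07 ± 0.08 (SD, n = 5) in KO mice and rose by 0.62 (SE 0.11, adjusted p = 0.0453). A second probe set of it changed by 0.30 (SE 0.11). The calls of Kdm5b and Prmt2 each held in only 2 of the 14 fits.

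The other higher genes were of varied function. Armcx4, an armadillo-repeat gene of the X chromosome, had values of 6.61, 6.92, 6.51, 6.60 and 6.55 in HET and 7.58, 7.71, 7.60, 7.68 and 7.46 in KO mice. The KO mice lay within a narrow range, HET 2 was the highest HET mouse, and the change was 0.95 (SE 0.13, adjusted p = 0.0257). Of the 14 fits, 10 called it. Tlcd5 rose by 1.10 (SE 0.19, adjusted p = 0.0453), with means of 8.09 ± 0.18 in HET and 9.24 ± 0.41 in KO mice (SD, n = 5 each). Poglut2, an enzyme that adds glucose to epidermal growth factor repeats such as those of NOTCH receptors, rose by 0.63 (SE 0.11, adjusted p = 0.0453), and Thyn1, a nuclear protein gene, by 0.58 (SE 0.09, adjusted p = 0.0291). Second probe sets above the tested level changed by 0.44 (SE 0.12) for Poglut2 and 0.53 (SE 0.12) for Thyn1. Pdlim1, which encodes a PDZ and LIM domain protein of the actin cytoskeleton, rose by 0.78 (SE 0.14, adjusted p = 0.0453). Ggh, a hydrolase of folate polyglutamates, rose by 0.63 (SE 0.11, adjusted p = 0.0453). Mfsd6 and Slc49a4, genes of membrane transport proteins, rose by 0.48 (SE 0.08, adjusted p = 0.0302) and 0.58 (SE 0.11, adjusted p = 0.0467). Of the 14 fits, 7 called Thyn1, 6 called Mfsd6 and 3 each called Tlcd5 and Poglut2, while Pdlim1, Ggh and Slc49a4 were called in only 1 each. Dab2ip, Ptpn9, Mfsd6 and Slc49a4 are the 4 higher genes outside the 12 with the largest change and were named after their values were seen.

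**Figure D3:**
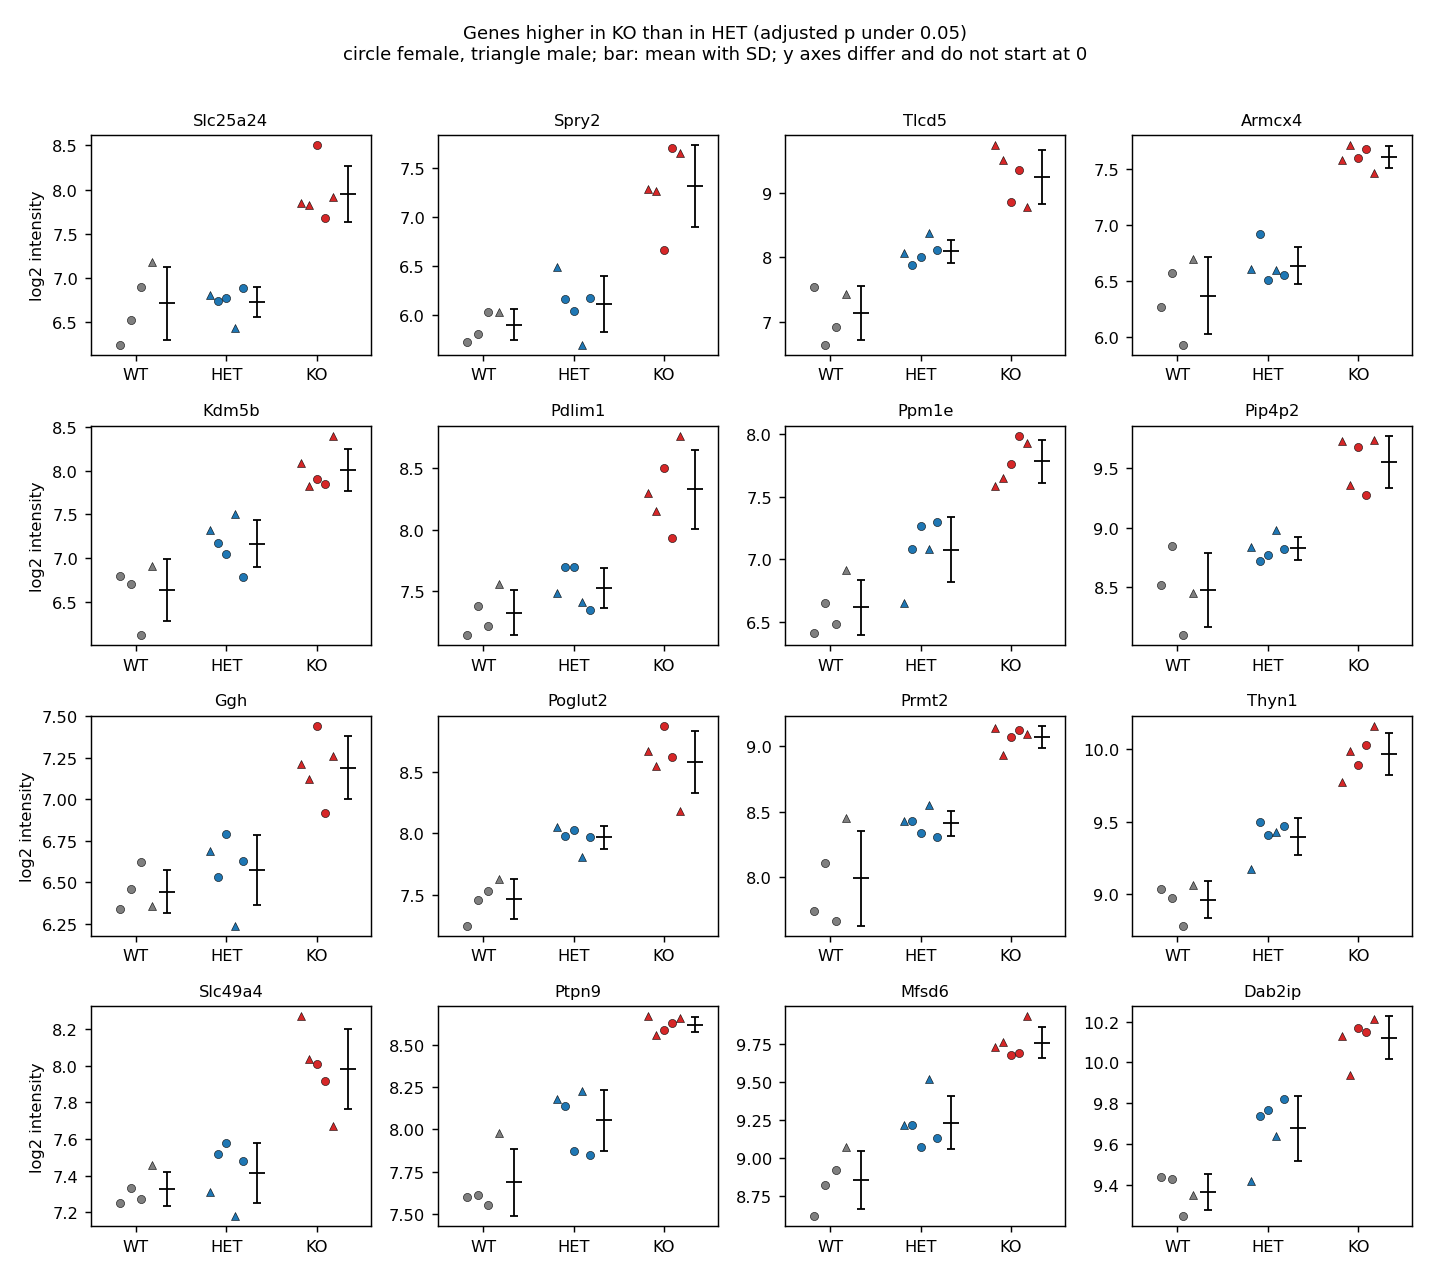
Log2 intensity of the 16 genes called higher in KO than in HET, 1 panel a gene, for each mouse by group; bars are the group mean with its SD. In every panel the lowest KO mouse lies above the highest HET mouse, and for Slc25a24 the HET mice lie within the range of the WT mice.

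Nr4a1 is an orphan nuclear receptor induced by antigen receptor signals, and its values were 6.95, 6.76, 6.67, 6.69 and 6.47 in HET and 6.41, 6.19, 6.32, 6.02 and 6.19 in KO mice. The highest KO mouse lay just below the lowest HET mouse. It fell by 0.53 (SE 0.10, adjusted p = 0.0453), to 69.3% of HET, and was called in only 1 of the 14 fits. Ebi3, a cytokine subunit shared by interleukins 27 and 35, had values of 9.14, 9.25, 9.29, 8.93 and 9.23 in HET and 8.76, 8.56, 8.70, 8.80 and 8.29 in KO mice, with KO 5 the lowest. It changed by -0.51 (SE 0.09, adjusted p = 0.0453). Only 3 of the 14 fits called it. Ifnlr1, the specific chain of the receptor for interferon lambda, had values of 7.69, 7.45, 7.20, 7.64 and 7.56 in HET and 6.85, 6.77, 6.77, 6.81 and 7.19 in KO mice. KO 5 stood above the other KO mice and close to HET 3, and the change was -0.67 (SE 0.10, adjusted p = 0.0291). It was called in 6 of the 14 fits.

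Prss55, a trypsin-like serine protease known from testis, had the smallest p of all genes. Its values were 7.30, 7.19, 7.04, 7.34 and 7.24 in HET and 6.70, 6.59, 6.74, 6.62 and 6.64 in KO mice. The KO mice spread little and lay well below the HET mice, with a change of -0.59 (SE 0.07, adjusted p = 0.0222). It was called in 12 of the 14 fits, and the exceptions were the fits without HET 1 and HET 5. In WT mice the values were 7.10, 6.97, 7.15 and 7.41, within or near the HET range.

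Psen2, a catalytic subunit of gamma-secretase, which cleaves NOTCH and other membrane proteins, changed by -0.44 (SE 0.06, adjusted p = 0.0291) and was called in 9 of the 14 fits. Its KO values ran from 9.19 to 9.64 and its HET values from 9.70 to 9.98, while a dimmer second probe set changed by 0.03 (SE 0.09). Btnl2, a butyrophilin-like membrane protein that restrains T cells, changed by -0.47 (SE 0.08, adjusted p = 0.0453). Tmem51 had the largest fall among the 11 called genes, -0.83 (SE 0.15, adjusted p = 0.0459), and was the only called gene whose groups overlapped, since KO 5 at 7.85 exceeded HET 3 at 7.76. Hemgn, a nuclear protein gene of haematopoietic cells that is strongly expressed in erythroid precursors, changed by -0.72 (SE 0.12, adjusted p = 0.0453). Of the 9 erythroid and platelet markers, 7, Hba-a1 and Alas2 among them, were below the tested level, while Car2 and Gp9 were above it. The summed intensity of the 9 was 918 to 1045 in HET and 984 to 1393 in KO mice. The part of erythroid cells in the change of Hemgn was not tested. Ddx25, an RNA helicase known from testis, changed by -0.61 (SE 0.11, adjusted p = 0.0453). Aldh3b1, an aldehyde dehydrogenase, and BC028528 changed by -0.31 (SE 0.06, adjusted p = 0.0469) and -0.34 (SE 0.06, adjusted p = 0.0459). Hemgn was called in 5 of the 14 fits, Ddx25 and Aldh3b1 in 2, and Tmem51, Btnl2 and BC028528 in only 1.

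**Figure D4:**
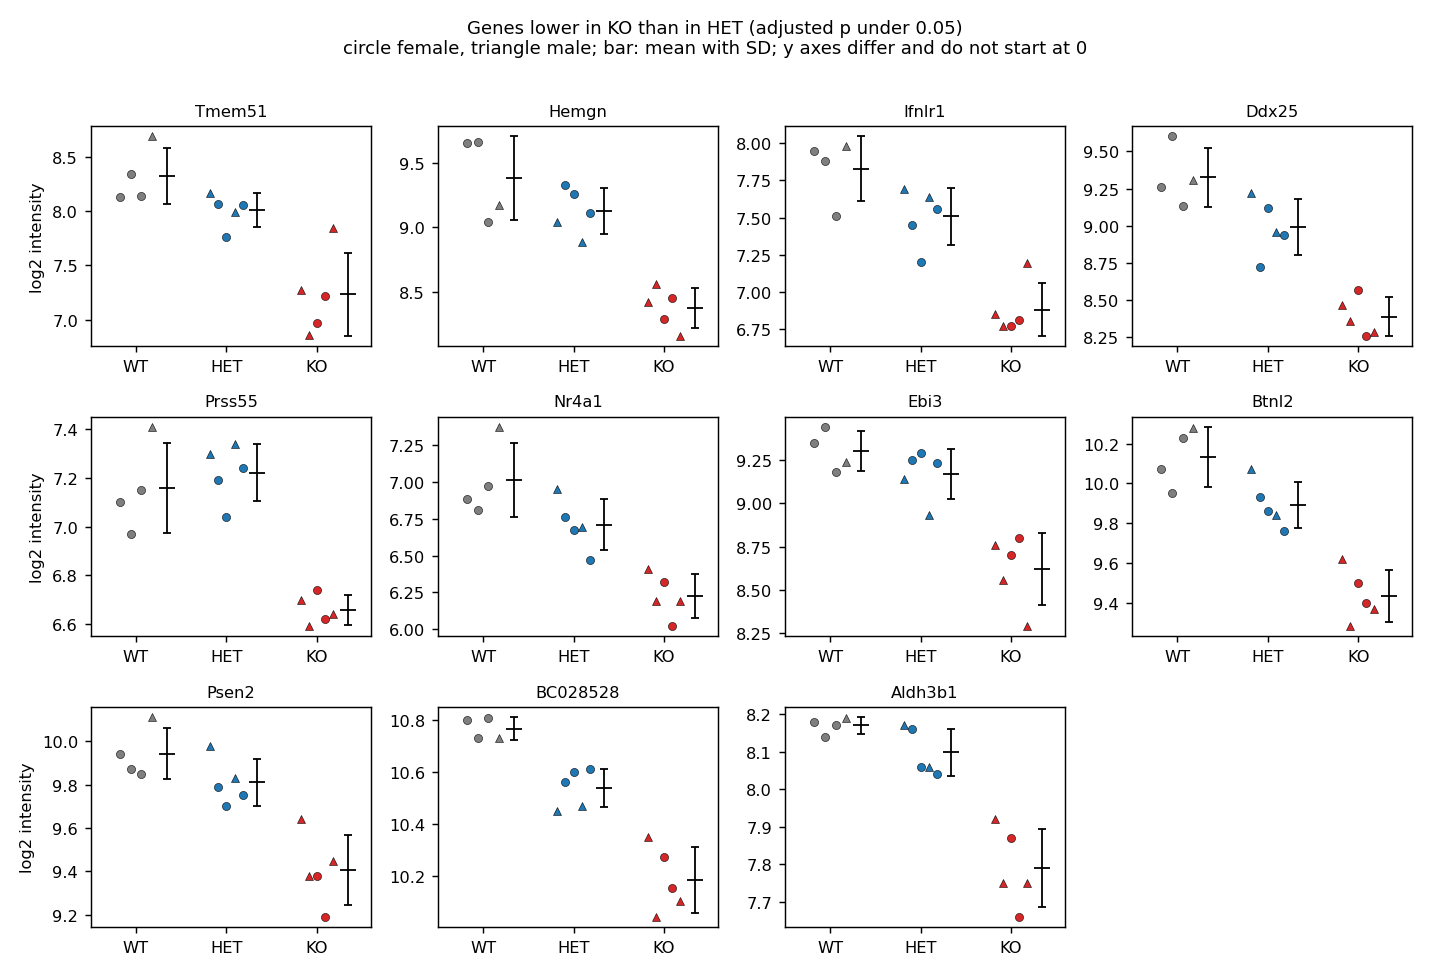
Log2 intensity of the 11 genes called lower in KO than in HET, 1 panel a gene, for each mouse by group; bars are the group mean with its SD. The KO mice lie below all HET mice except in the Tmem51 panel, where KO 5 at 7.85 is above HET 3 at 7.76.

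Other probe sets gave a further measure of 11 of the 27 genes in the same RNA. Of their 16 other probe sets, 14 had the same sign and 10 of these an unadjusted p under 0.05. Both with the opposite sign, for Psen2 and Slc49a4, were below the tested level. All 5 above that level had the same sign, belonging to Mfsd6 (0.60 and 0.30), Poglut2, Prmt2 and Thyn1.

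The same 27 genes held different positions relative to WT mice. The KO arrays are shared by KO against HET and KO against WT, and the HET arrays by KO against HET and HET against WT, so these values are set side by side without a test. Slc25a24, Prss55, Aldh3b1, Slc49a4 and Ebi3 had small HET changes against WT, of 0.02 (SE 0.19), 0.04 (SE 0.08), -0.08 (SE 0.06), 0.09 (SE 0.11) and -0.10 (SE 0.09). Their KO changes against WT were 1.25 (SE 0.20), -0.55 (SE 0.08), -0.39 (SE 0.06), 0.67 (SE 0.12) and -0.61 (SE 0.09). Spry2 had a HET change of 0.20 (SE 0.20) beside a KO change of 1.38 (SE 0.20). Tlcd5, Poglut2, Kdm5b, Thyn1 and Ppm1e had HET changes of 0.91 (SE 0.20), 0.51 (SE 0.12), 0.48 (SE 0.14), 0.44 (SE 0.09) and 0.48 (SE 0.14) against WT, close in size to or somewhat below their changes from HET to KO. Nr4a1, Ddx25 and Ifnlr1 had HET changes of -0.33 (SE 0.10), -0.34 (SE 0.12) and -0.35 (SE 0.11) against WT. As for Kdm5b and Ppm1e, these were smaller in size than the changes from HET to KO, which were -0.53, -0.61 and -0.67. No gene passed an adjusted p of 0.05 in HET against WT.

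The promoters of the called genes were searched for the CRE, the sequence bound by CREB, because CREB recruits CREBBP. RefSeq promoters (GRCm38.p6) were found for 13 higher and 10 lower genes, and the 250 bases before each annotated start were read on both strands. The full site TGACGTCA was found in none of the 23, against 3.23% of the 8358 tested genes with a promoter. Its short form TGACG, which the full site contains, was found in 2 of 13 higher and 2 of 10 lower genes (15.4% and 20%), against 32.1% of all. The Nr4a1 promoter held 4 of them, each on the reverse strand and so read as CGTCA here, starting 233, 213, 69 and 40 bases before the start of the gene. It is shown because it holds the most short sites among the called genes, 5′ to 3′ with these sites in capitals, from chr15:101266596-101266845, plus strand.
Nr4a1 promoter: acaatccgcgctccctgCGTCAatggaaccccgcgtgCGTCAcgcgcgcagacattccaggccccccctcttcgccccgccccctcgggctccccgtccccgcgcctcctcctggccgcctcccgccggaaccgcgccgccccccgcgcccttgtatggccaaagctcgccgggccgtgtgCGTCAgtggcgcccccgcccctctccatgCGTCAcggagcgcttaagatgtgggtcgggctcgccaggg
The other called genes with a short site each held 1, shown in capitals among the neighbouring bases. They are the lower gene Aldh3b1 (chr19:3929961-3930005, minus strand, 207 bases before the start) and the higher genes Kdm5b (chr1:134559928-134559971, plus strand, 231 bases before) and Armcx4 (chrX:134686482-134686518, plus strand, 17 bases before).
Aldh3b1 stretch: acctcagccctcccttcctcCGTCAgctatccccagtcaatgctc
Kdm5b stretch: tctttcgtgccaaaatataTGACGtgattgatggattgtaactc
Armcx4 stretch: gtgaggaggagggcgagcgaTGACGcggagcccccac
A match describes these letters only and is not a measured binding site.

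Genes linked to the floxed allele travel with it on chromosome 16, so the neighbours of Crebbp were described. Of the 87 annotated genes within 50 places of Crebbp on either side, cut off by the chromosome end, 30 were tested, and 0 were called by limma at an adjusted p of 0.05. Trap1 and Ppl, 6.67% of the 30, reached an unadjusted p under 0.05, against 6.39% of all genes. Of the 335 genes tested on that whole chromosome besides Crebbp, Slc49a4 was the only called gene, where 0.264% of all genes tested were called. An unadjusted p under 0.05 was reached by 26 of these 335 genes (7.76%).

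The gene lists described from here on were chosen with earlier results of these data known, and no list was tested. Of 25 tested light zone genes 21 were lower in mean in KO (median -0.18), where 52.7% of all genes tested were negative with a median of -0.0052 (44.8% after median centring). Ebi3 and Nr4a1 were called, and 7 members were lower at an unadjusted p under 0.05, which 3.83% of all genes were. The 5 not called included Egr3, a transcription factor induced by antigen receptor signals, at -0.39 (SE 0.13, unadjusted p = 0.0081, adjusted p = 0.407). Without KO 3, 21 of 25 were negative, the median was -0.14 and 1 member was called, and the median was -0.22 in females alone and -0.11 in males alone. Averaged over the list, KO mice lay between -0.26 and -0.091 relative to the HET mean and HET mice between -0.097 and 0.13, so KO 1 lay just above HET 4.

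Targets of CD40 and NF-kB, some of them, such as Ebi3 and Traf1, also light zone genes, were negative for 23 of 24 (median -0.14). Ebi3 was the called gene, and Nfkb2, the precursor of the p52 subunit, changed by -0.31 (SE 0.09, unadjusted p = 0.00567, adjusted p = 0.379). Without KO 3 the count was again 23 of 24. The list of NR4A, EGR and immediate early genes, some of which respond to cell handling, was negative for 18 of 21 (median -0.11), with Nr4a1 called, and 16 of 21 without KO 3. Its list average ran from -0.29 to 0.32 in HET and from -0.27 to 0.15 in KO mice, a wide overlap. Of the cAMP and CREB pathway, 16 of 26 genes were negative (median -0.042, from -0.070 without HET 3 to -0.015 without HET 4). Per1, a clock gene with CREB sites, changed by -0.33 (SE 0.10, unadjusted p = 0.00429, adjusted p = 0.32), beside the called Nr4a1.

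Antigen presentation genes had mostly small negative changes, and 0 were called by limma at an adjusted p of 0.05. For MHC class II, 15 of 16 tested genes were negative (median -0.12), where 52.7% of all genes tested were. The median was -0.14 in females alone and -0.095 in males alone. At an unadjusted p under 0.05, 6 were lower, which 3.83% of all genes were. H2-Ab1, a class II chain, had values of 13.59, 13.64, 13.66, 13.56 and 13.56 in HET and 13.37, 13.43, 13.54, 13.46 and 13.37 in KO mice. All KO mice lay below all HET mice, by a small margin. Its change was -0.16 (SE 0.05, unadjusted p = 0.0065, adjusted p = 0.395), and that of H2-DMa, which helps to load peptides, was -0.22 (SE 0.07, unadjusted p = 0.0077, adjusted p = 0.407). Averaged over the list, KO mice lay between -0.23 and -0.10 relative to the HET mean and HET mice between -0.057 and 0.050, without overlap. Without KO 3, 14 of 16 were negative. For MHC class I, 13 of 15 genes were negative with a median of -0.075, and 10 of 15 with a median of -0.048 without KO 3. Tap2, a subunit of the peptide transporter, had the smallest p, at -0.21 (SE 0.08, unadjusted p = 0.0263, adjusted p = 0.635).

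Of B cell receptor signalling genes 20 of 21 were negative (median -0.071), and 17 of 21 without KO 3. The list average ran from -0.12 to -0.0685 in KO mice and from -0.0375 to 0.0354 in HET mice. As for MHC class II, the groups did not overlap, here by a small margin. For every other gene list the averages of KO and HET mice overlapped, and the separation was not tested. Cd79a, a signalling chain of the receptor, changed by -0.13 (SE 0.05, unadjusted p = 0.0313, adjusted p = 0.675). No member was called, and 1 reached an unadjusted p under 0.05. Among inhibitory receptors and phosphatases, Spry2 was called and Spred1, which like Spry2 limits RAS signalling, changed by 0.37 (SE 0.11, unadjusted p = 0.00586, adjusted p = 0.38), while 16 of the 21 tested genes had negative changes.

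Of 21 tested genes of germinal centre B cell identity 14 were negative (median -0.025, from -0.050 without KO 4 to -0.0096 without KO 3), with 0 called by limma and 1 at an unadjusted p under 0.05. Rgs13, a regulator of chemokine receptor signalling typical of germinal centre B cells, had the smallest p, at -0.47 (SE 0.11, unadjusted p = 0.00116, adjusted p = 0.15). Its values were 11.71, 11.52, 11.67, 11.76 and 11.63 in HET and 11.34, 11.48, 11.10, 11.30 and 10.75 in KO mice, with KO 5 the lowest. Dark zone genes had 12 of 16 positive changes, against 47.3% of all genes, with a median of 0.043. Without KO 3 these became 9 of 16 and 0.011, and without KO 1 the median was 0.066. Mitosis genes, some of them, such as Hmmr and Ccnb2, also dark zone genes, had 24 of 29 positive changes with a median of 0.046. Without KO 3 the count was 25 of 29, and the median was 0.070 without KO 1. The lists share members, so their counts are not separate results. Neither list had a member at an unadjusted p under 0.05. Ttk, a mitotic checkpoint kinase, changed by 0.13 (SE 0.07, unadjusted p = 0.0683, adjusted p = 0.847). Of the plasma cell list, Irf4 changed by -0.14 (SE 0.08, unadjusted p = 0.0808, adjusted p = 0.891) and the surface proteoglycan gene Sdc1 by 0.29 (SE 0.17, unadjusted p = 0.114, adjusted p = 0.993), with 0 of 13 genes called or at an unadjusted p under 0.05.

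Several other regulators had sizeable changes that did not pass over all genes. Gfi1, a zinc finger repressor, had values of 7.67, 7.81, 7.36, 7.57 and 7.47 in HET and 8.08, 8.19, 8.46, 8.18 and 8.64 in KO mice. The groups did not overlap, and its change of 0.71 (SE 0.14, adjusted p = 0.0589) did not pass. Fmn2, a formin that nucleates actin filaments, changed by 0.92 (SE 0.19, adjusted p = 0.0635) and Adgrl2, an adhesion receptor, by 0.97 (SE 0.23, adjusted p = 0.136). Mxd1 and Mxi1, partners of MAX that oppose MYC, changed by 0.48 (SE 0.11, adjusted p = 0.135) and 0.54 (SE 0.13, adjusted p = 0.14). Bmf, a BH3-only protein that promotes apoptosis, changed by -0.44 (SE 0.10, adjusted p = 0.106), and the p53 target Zmat3 by 0.38 (SE 0.09, adjusted p = 0.111). Ffar2, which senses short-chain fatty acids and was listed with cytokine receptors, changed by -0.65 (SE 0.15, adjusted p = 0.134). Of p53 targets 11 of 18 were negative, but 8 of 18 in females alone. Of apoptosis regulators 12 of 20 were negative (median -0.030), but 9 of 20 without KO 3 (median 0.020).

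**Figure D5:**
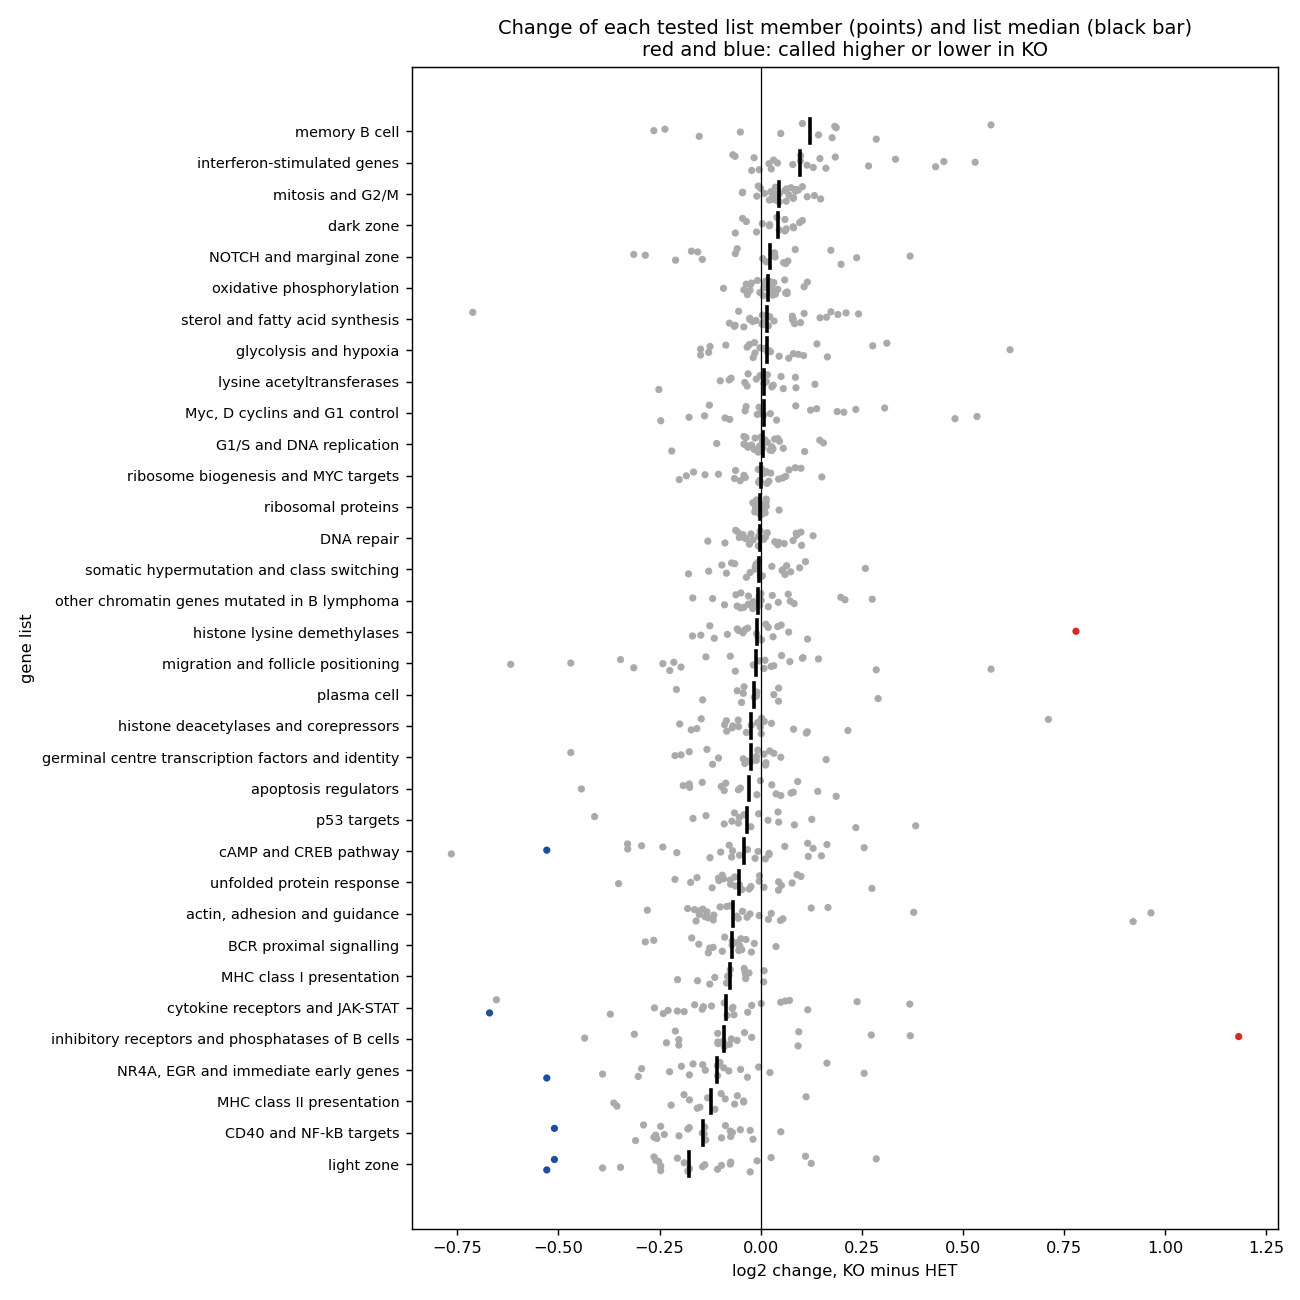
Log2 change (KO minus HET) of each tested member of 34 gene lists (points) and the list median (black bar); red and blue points are called genes. The light zone list has the lowest median, -0.18, and the points called are Ebi3, Nr4a1, Ifnlr1, Spry2 and Kdm5b.

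The change from HET to KO was also compared between sexes on the 10 arrays. Limma called 0 genes for an interaction of group and sex, with 156 genes at an unadjusted p under 0.05. All 27 called genes had the same sign in females (3 HET and 2 KO mice) and males (2 HET and 3 KO mice), and none of them had an unadjusted interaction p under 0.05. Their choice by the difference over these same mice largely fixes the shared sign and makes a low interaction p less likely. In females Slc25a24 differed by 1.29 and in males by 1.24, and Spry2 by 1.06 and 1.31. A count of 0 does not show the changes to be equal, with 2 or 3 mice per sex and group.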

How the data were processed

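The authors deposited log2 intensities for 45101 probe sets of an Affymetrix mouse genome array. Per the labels' protocols, 25 ng of total RNA from each mouse was reverse transcribed and amplified, and 3.75 ug of the cDNA was given a biotin label. RMA (background correction, quantile normalisation and probe set summary) made these values, per the submitters' processing notes, with no version given in the sources used here. Such scaling hides a shift shared by most genes.

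Of the probe sets, 64 are controls, and 34945 name 1 gene in the platform annotation, of which 34741 matched RefSeq by gene identifier. The brightest stood for each of 18193 genes, and those with a mean above 6.43 were tested. In R 4.3.3, limma 3.58.1 (lmFit, eBayes) fitted terms for group and sex to all 14 arrays, with 10 residual degrees of freedom and a threshold of 0.05. Crebbp was also fitted on all non-control probe sets. The procedure was checked on simulated data.

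The members and the 34 gene lists were chosen with earlier results of these data known. Lists are described by counts and medians, with no test of a list. Genes named by rule are the 12 higher and 12 lower called genes with the largest change (or all, where fewer passed), up to 2 members per list by smallest p, called list members, Crebbp and Ep300. Alternatives changed the filter, probe set choice, normalisation, covariate, arrays and variance model; list counts without KO 3 were added after seeing the data. The labelled sex matched Xist and Eif2s3y in all 14 mice, and at most 58 values were identical between any 2 arrays. The mice were individual animals per the labels. Same-numbered HET and KO arrays were not treated as pairs.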

Additional observations from a re-analysis of the deposited data

Results flagged for a closer look

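In 64 groups of 5 arrays (the 27 called genes and the 5 probe sets of Crebbp and Ep300, in HET and in KO), 7 had 1 mouse whose distance to its nearest neighbour exceeded 0.71 of the group's range. About 5% of groups would do so by chance. For Slc25a24, KO 3 was high at 8.50, with the next mouse at 7.91. For Ifnlr1, KO 5 was high at 7.19, next to 6.85. For Dab2ip, KO 2 was low at 9.94, next to 10.13. For Thyn1, HET 1 was low at 9.17, next to 9.41, and for Armcx4, HET 2 was high at 6.92, next to 6.61. For Crebbp, KO 3 was low at 11.71 on 1435224_at, next to 12.05, and HET 1 was high at 7.66 on 1459804_at, next to 7.23.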

How the results depend on the processing

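The 27 calls (16 higher, 11 lower) differed in number between settings. Without a filter on dim probe sets 2 genes were called (1 higher, 1 lower), with a filter at the 75th percentile 4 (3 and 1; 6488 genes tested), and with every probe set as its own row 0 (0 and 0; 1739 of 45037 at an unadjusted p under 0.05). The HET and KO arrays alone gave 5 (3 and 2), females alone 0 (0 and 0; 655 at an unadjusted p under 0.05) and males alone 0 (0 and 0; 301). Median centring gave 41 (27 and 14), array weights 72 (27 and 45), of which 26 were among the 27, and a threshold of 0.10 gave 48 (29 and 19). Mean of probe sets, repeated quantile normalisation, no sex covariate, and limma's trend and robust options gave 25 to 36. The cause of these differences was not tested. Leaving out 1 array gave 0 to 25 calls, 0 to 11 higher and 0 to 17 lower. With the replicate block on the 10 arrays 1 gene was called (1 higher and 0 lower). The main fit did not take the numbers as pairing the mice. Deviations of same-numbered arrays correlated at 0.248, -0.0555, 0.172, 0.295 and 0.43 for numbers 1 to 5, and only HET 4 correlated best with its own number. On the first principal component HET 1 to HET 5 lay at -3.91, -5.54, -9.45, 9.32 and 8. KO 1 to KO 5 lay there at -2.36, 2.52, -27.5, 13.2 and 15.7. Whether same-numbered mice shared a litter or day was not tested. In every fit that tested them the 27 genes kept their sign, which their choice largely fixes.

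No Crebbp probe set passed over all probe sets in any fit run, and signs of all 4 were kept. The change of Ep300 turned to -0.04104 in males alone. Rpl14, a ribosomal protein gene, changed by 0.05 in the main fit. Leaving out 1 array, Ep300 ran from -0.06524 to 0.133 in the fit over genes and from -0.0652 to 0.133 over probe sets, lowest without KO 4, and Rpl14 from -0.0008045 without KO 5 to 0.06686 without KO 1. The interaction with sex called 0 genes in every fit run.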

Other observations

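Metabolic and biosynthetic programmes had 0 called members in limma. Of 31 tested genes of oxidative phosphorylation 22 had positive changes, with a median of 0.018 and 0 at an unadjusted p under 0.05, and without KO 3 the split was 16 positive of 31. Ribosomal protein genes were positive in 8 of 18, and in 16 of 18 after median centring. Ribosome biogenesis and MYC targets were positive in 15 of 30, and in 10 of 30 without KO 3. In the sterol and fatty acid list, 20 of 30 genes were positive (16 of 30 without KO 3) and 5 reached an unadjusted p under 0.05. Cyp27a1, a sterol hydroxylase, changed by -0.71 (SE 0.20, unadjusted p = 0.00296, adjusted p = 0.255), with values of 8.74, 8.75, 8.67, 8.82 and 8.85 in HET and 8.79, 7.47, 8.32, 7.99 and 7.70 in KO mice. KO 1 lay among the HET mice and the other 4 below them. Fads2, a fatty acid desaturase, changed by 0.21 (SE 0.06, unadjusted p = 0.00409, adjusted p = 0.315). Of the glycolysis and hypoxia list 14 of 25 were positive, 6 in females alone and 21 in males alone, and Eno2, a glycolytic enolase, changed by 0.62 (SE 0.19, unadjusted p = 0.00594, adjusted p = 0.38).

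Interferon-stimulated genes had 17 of 22 positive changes with a median of 0.10, but the range within each group exceeded this difference. Averaged over the list, HET 4 lay at -0.46 relative to the HET mean and HET 5 at 0.27, while KO mice ran from -0.21 in KO 2 to 0.44 in KO 3. Without HET 4 the median was 0.0048. Ifih1, a sensor of viral RNA, changed by 0.53 (SE 0.14, unadjusted p = 0.00219, adjusted p = 0.224), with KO 3 at 7.48 the highest of all mice. Of 12 memory B cell genes 8 were positive (median 0.12), but 6 without KO 3 (median -0.0022) and 5 in females alone, and the median was 0.20 without KO 4. S1pr1, the receptor that guides egress toward blood, changed by 0.57 (SE 0.18, unadjusted p = 0.0076, adjusted p = 0.407), with WT mice at 6.65, 6.53, 6.65 and 6.79, HET mice at 6.26, 6.95, 6.15, 5.90 and 6.06 and KO mice at 6.95, 7.25, 6.76, 6.49 and 6.79. WT and KO values lay close to each other, and 4 of 5 HET mice lay below all WT and KO mice. Unfolded protein response genes were negative in 19 of 27 (median -0.052), but in 12 of 27 without KO 3 (median 0.0072), and the median was -0.087 without KO 4. There Herpud1, a component of protein degradation at the endoplasmic reticulum, changed by -0.35 (SE 0.12, unadjusted p = 0.0126, adjusted p = 0.474) with all arrays.

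The chromatin lists held no called gene other than Kdm5b. Lysine acetyltransferases had 10 of 19 positive changes, histone deacetylases and corepressors 10 of 25, and other chromatin genes mutated in B cell lymphoma 11 of 26, and without KO 3 these counts were 9, 12 and 15. Dnmt3b, a de novo DNA methyltransferase, changed by 0.28 (SE 0.09, unadjusted p = 0.00687, adjusted p = 0.406). Genes of somatic hypermutation and class switching were positive in 11 of 24 (16 after median centring), with Xrcc6, a subunit of the Ku end-joining complex, at 0.26 (SE 0.09, unadjusted p = 0.011, adjusted p = 0.464). DNA repair genes were positive in 13 of 27 (16 after median centring) and G1/S genes in 17 of 30 (13 without KO 3), with Gins2, a replication helicase subunit, at 0.16 (SE 0.06, unadjusted p = 0.0162, adjusted p = 0.505).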
